A study of Oryza sativa Japonica Group with 59 samples.

Results

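Unicellular zygotes of rice (Oryza sativa Japonica Group) labelled cmt3b, from plants edited in the chromomethylase gene CMT3b, were compared with wild-type (WT) zygotes by RNA-seq. The comparison rests on 6 libraries, 3 titled cmt3b zygote and 3 titled ZH11 zygote, out of 59 samples in the series, of which 27 are RNA-seq. The WT cells came from ZH11 (Zhonghua11) plants regenerated from tissue culture, and the cmt3b cells from Cas9-free descendants of plants edited by CRISPR/Cas9. The study names more than one edited line but not the line behind each library. The labels place the zygotes 6 to 8 h after fertilization, whereas the isolation protocol gives about 6.5 h after pollination. Each library was made from a pool of live-stained zygotes picked with a micromanipulator, so its values are averages over a pool of cells. A further pair of groups, WT egg (3 libraries) and cmt3b egg (2 libraries), labelled as the same genotypes before fertilization, served to ask whether the genes that changed in the mutant zygote are those that change between the WT egg and the WT zygote.

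CMT3 proteins are plant chromomethylases. They bind nucleosomes that carry dimethylated histone H3 lysine 9 and methylate cytosine in the CHG context, where H is any base but G. The mark is concentrated on transposons and repeats and is known for keeping them silent, and histone demethylases that remove the lysine 9 mark act against it. Rice has a pair of expressed members, CMT3a and CMT3b. In flowering plants the zygote forms when a sperm fuses with the egg, and large numbers of genes for chromatin assembly and cell division then become active.

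The mutation was made with a pair of guide RNAs against CMT3b (LOC_Os03g12570, chromosome 3). They are shown because they define the mutant, and the capitals mark the 10 bases at the 3′ end, the part of a Cas9 guide that lies next to the PAM and tolerates mismatches least.
CMT3b sgRNA-1: aggggaccgaGCTCGACAGT
CMT3b sgRNA-2: acataatcacCCATACTCGC
Each guide is 20 bases long. The edits themselves cannot be read from gene counts.

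Total counts were between 13924063 and 22392600 in the WT zygote libraries and between 9240046 and 15653152 in the cmt3b zygote libraries, and 3 counts, taken here as the limit of detection, correspond to 0.330 CPM (counts scaled to a common library total) in the smallest library. The chi-square per degree of freedom between pairs of libraries was 1.37 to 1.75 in WT zygote and 2.85 to 3.51 in cmt3b zygote, where 1 is pure sampling. Nothing in the labels says that the libraries of a group came from separate plants, so the p-values measure only the spread between these libraries. Markers of other cells were defined in the WT egg, sperm, meiocyte and microspore libraries. The 195 egg-enriched genes summed to 21746–22173 CPM in WT zygote and 17951–18764 CPM in cmt3b zygote, and the 1308 sperm-enriched genes to 7707–7856 and 7684–7908 CPM. The 464 meiocyte-enriched genes summed to 3516–3779 and 2971–3097 CPM, and the 420 microspore-enriched genes to 1343–1349 and 2274–2390 CPM. In cmt3b zygotes, by the test described below, 51 of 173 tested microspore-enriched genes were higher and 13 lower, beside 8.67% higher and 8.08% lower over all tested genes. Of 194 tested egg-enriched genes 7 were higher and 30 lower, of 598 sperm-enriched genes 42 and 90, and of 116 meiocyte-enriched genes 13 and 22. The part of other cells in the results was not tested. The Rubisco small subunit genes, markers of green tissue, were uneven among the mutant libraries and are described with the plastid genes. In pools of cells, fewer cells expressing a gene and less RNA per cell cannot be told apart.

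The targeted gene was examined first. CMT3b was measured at 10.5, 8.72 and 9.83 CPM in the WT zygote libraries and at 3.81, 4.73 and 3.96 CPM in the cmt3b zygote libraries. The groups did not overlap, and the transcript fell by 1.22 on the log2 scale (SE 0.13, adjusted p = 1.4e-08, edgeR quasi-likelihood test with Benjamini-Hochberg adjustment over all genes tested, as for every adjusted p here). Mutant zygotes therefore still held CMT3b RNA. In the egg the picture differed, since the WT egg libraries had 5.07 to 5.47 CPM and the cmt3b egg libraries 0 and 0.0914 CPM, or 0 and 1 counts, against 43 to 58 counts in the cmt3b zygote libraries. Whether the cmt3b egg and zygote libraries came from the same edited line cannot be told from the labels.

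The second chromomethylase was far more abundant than the targeted one. Per length, CMT3a (LOC_Os10g01570) stood at 90.9 FPKM and CMT3b at 1.61 FPKM in WT zygotes (authors' FPKM, mean of 3 libraries). CMT3a was at 150, 146 and 152 CPM in WT and 129, 125 and 139 CPM in cmt3b zygotes, a log2 difference of -0.16 (SE 0.05, adjusted p = 0.0029) that did not reach a 2-fold change. MET1b (LOC_Os07g08500), of the family that maintains CG methylation, was at 87.7, 92.5 and 92.4 CPM in WT and 92.5, 90.7 and 96.4 CPM in cmt3b zygotes, with overlapping groups. JMJ707 (LOC_Os02g46930), related to a rice H3K9 demethylase, was at 3.59, 3.33 and 4.27 CPM in WT and 8.41, 8.70 and 7.99 CPM in cmt3b. It rose by 1.16 on the log2 scale (SE 0.14, adjusted p = 4.5e-08). JMJ706 (LOC_Os10g42690), the demethylase itself, had a log2 difference of 0.36 (SE 0.12), below the 2-fold limit.

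Of 20638 genes with enough counts to test, 1790 were higher and 1667 lower in cmt3b zygotes, where a call required more than a 2-fold change together with an adjusted p below 0.01. That is 8.67% higher and 8.08% lower. Over all tested genes the median log2 fold change was near 0 (-0.0019). The groups of 3 libraries did not overlap for 1756 of the higher and 1665 of the lower genes. The call itself makes such separation likely, so these counts are no further support. Raised and lowered genes differed in the size of the change. Over 4-fold changes made up 440 of the higher (24.6%) and 263 of the lower genes (15.8%), and over 16-fold changes 115 and 17. Among the higher genes, 115 had no more than 3 counts in any WT zygote library, and among the lower genes 43 had no more than 3 counts in any cmt3b zygote library. The first set reached means of up to 411 CPM in the mutant, and the second started from at most 2.73 CPM in WT. By this limit of 3 counts, strong gains from silence were seen at high level, and complete losses only for genes that were weak in WT. LOC_Os04g52420 came close to a complete loss, from 13.2–14.6 CPM in WT to 4, 3 and 5 counts in the cmt3b zygote libraries.

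Genes present in one genotype only were counted with a stricter rule, no more than 3 counts in every library of one group and at least 10 CPM in every library of the other. It found 16 loci in cmt3b zygotes and 0 in WT zygotes. The most abundant was LOC_Os03g02470, annotated only as an expressed protein, at 431, 385 and 417 CPM in cmt3b and 2, 2 and 1 counts in the WT zygote libraries, which makes it at least 1854-fold higher against the limit of 3 counts. LOC_Os01g35330 (annotated by similarity as a circumsporozoite protein precursor, a name from a malaria parasite) was at 203, 202 and 188 CPM against 0, 2 and 0 counts, at least 892-fold higher. LOC_Os03g18779 followed at 107, 106 and 107 CPM and was at least 482-fold higher. For 10 of the 16 loci the lower bound exceeded 100-fold. All 3 mutant libraries carried each of these transcripts at similar levels.

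The 16 loci lay on 10 chromosomes, and 2 of them are annotated as retrotransposon proteins, LOC_Os06g40240 (33.0, 36.9 and 30.5 CPM) and LOC_Os07g48000 (14.4, 14.6 and 14.6 CPM). LOC_Os01g52020, annotated as a subtilase, a class of serine protease, was at 21.5, 20.8 and 19.2 CPM with 0 counts in WT zygotes. LOC_Os05g18780 (RPP14, annotated in the rpp14 family) was at 25.2, 22.7 and 23.7 CPM, at least 108-fold higher than WT. The same loci were then read in the other cells of the series, with CPM per total count outside egg and zygote. All 16 had at least 1 CPM in cmt3b meiocytes, 12 in cmt3b eggs, 12 in cmt3b sperm and 9 in all 3 of these cells, and none lacked expression in all of them. Of the 16, 8 stand in the study's table of genes raised in cmt3b meiocytes and 5 in that for cmt3b sperm. Expression of those loci in that mutant cell was a condition of the table. In cmt3a eggs, 11 reached 1 CPM. In WT cells other than zygotes, 7 reached 1 CPM in at least 1 cell type, 13 had no more than 3 counts in every WT egg library and 4 had no more than 3 counts in every WT library of any cell. LOC_Os07g48000 and LOC_Os01g52020 were detected in the mutant zygote but hardly in the mutant egg, at 0 and 0.0457 CPM there, while LOC_Os02g49640 was at 66.8 CPM in cmt3b zygotes and 0.142 CPM in cmt3b eggs.

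**Figure D1:**
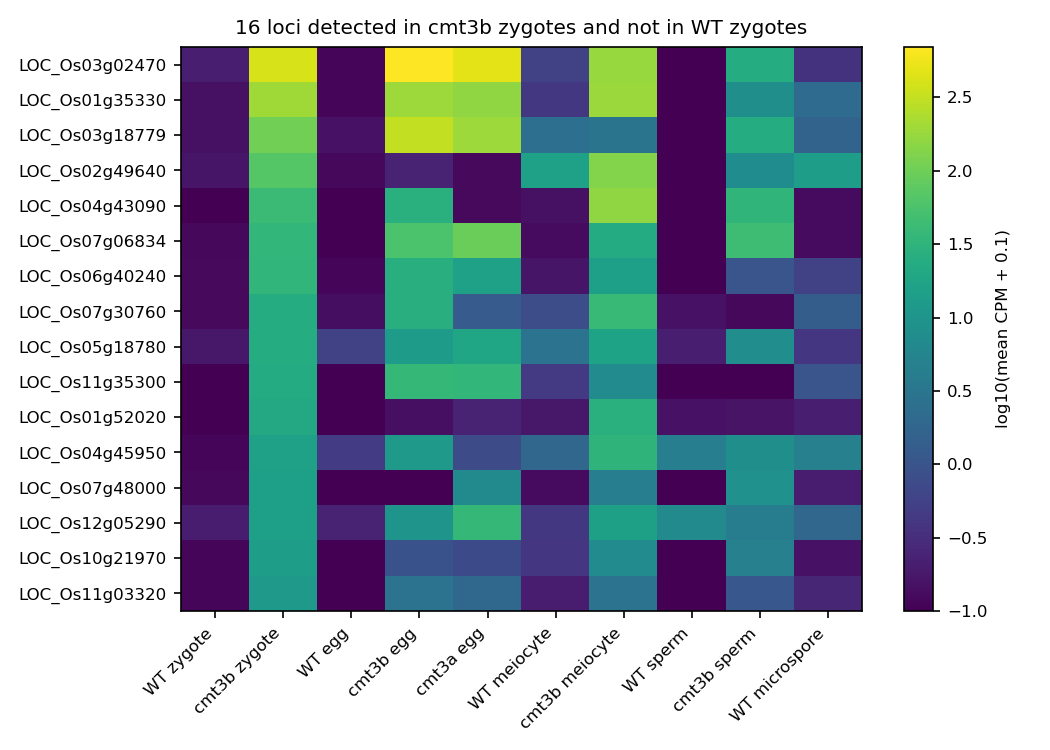
Mean CPM on a log10 scale (0.1 added) of the 16 loci detected in cmt3b zygotes and not in WT zygotes, in every group of RNA-seq libraries; egg and zygote values are scaled by TMM factors and the others by total count. All 16 are dark in WT zygotes and bright in cmt3b zygotes, and LOC_Os01g52020 and LOC_Os07g48000 are dark in cmt3b eggs.

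Of the 8 largest rises among genes of at least 10 CPM, 7 belonged to these loci, namely LOC_Os04g43090, LOC_Os01g35330, LOC_Os03g02470, LOC_Os01g52020, LOC_Os03g18779, LOC_Os11g35300 and LOC_Os07g06834. The other was LOC_Os07g39450, which missed the rule by 1 library under 10 CPM. LOC_Os04g43090 had 0 counts in every WT zygote and WT egg library and 35.8, 45.4 and 44.8 CPM in cmt3b zygotes, at least 189-fold higher. LOC_Os11g35300 was at 19.96, 24.88 and 24.98 CPM and LOC_Os07g06834 at 35.4, 33.8 and 37.4 CPM in the mutant. LOC_Os07g39450 reached 10.4, 9.80 and 10.6 CPM in cmt3b zygotes and had 0 counts in WT zygotes and in both kinds of egg.

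**Figure D2:**
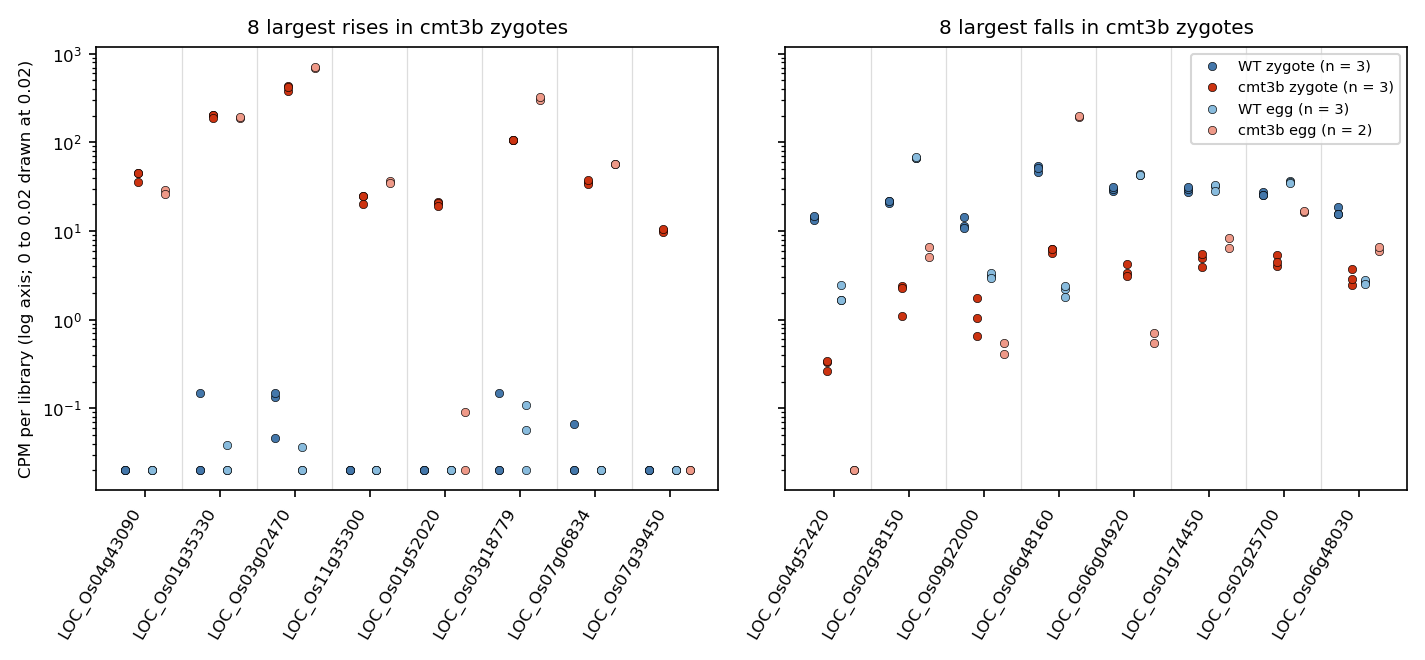
CPM of each egg and zygote library (log axis, values up to 0.02 drawn at 0.02) for the 8 largest rises and 8 largest falls in cmt3b zygotes among genes of at least 10 CPM; each point is 1 library. The raised genes sit at or near 0 in WT and between 9.80 and 431 CPM in cmt3b zygotes, while the lowered genes keep some expression in the mutant.

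The 8 largest falls started from 10.7 to 53.5 CPM and left transcripts behind. LOC_Os04g52420 was at 14.6, 13.2 and 14.6 CPM in WT and 0.263, 0.330 and 0.341 CPM in cmt3b zygotes, and fell by 5.46 on the log2 scale (SE 0.21, adjusted p = 2.5e-17). LOC_Os02g58150 went from 21.7, 20.8 and 21.8 CPM to 2.43, 1.10 and 2.25 CPM, a fall by 3.36. LOC_Os09g22000, annotated as a HAD superfamily hydrolase (enzymes that mostly remove phosphate groups), went from 11.4, 10.7 and 14.3 CPM to 1.05, 0.661 and 1.77 CPM and fell by 3.29. LOC_Os06g48160 dropped from 53.5, 46.7 and 51.2 CPM to 6.24, 5.72 and 6.21 CPM. LOC_Os06g04920, LOC_Os01g74450, LOC_Os02g25700 and LOC_Os06g48030 fell by 3.01, 2.57, 2.45 and 2.42. Non-overlapping libraries were a condition of the choice. The files and tables used here give no function for the 7 genes other than LOC_Os09g22000.

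The most abundant raised genes were neighbours at the start of the chromosome 9 numbering. LOC_Os09g01000 was at 5131, 5282 and 5102 CPM in WT and 26423, 26387 and 24277 CPM in cmt3b zygotes, and rose by 2.34 on the log2 scale (SE 0.05, adjusted p = 2.0e-21). LOC_Os09g00999 went from 1283, 1319 and 1292 CPM to 5645, 5121 and 5190 CPM. Together they took 0.622 to 0.641% of all counts in WT and 2.82 to 3.12% in cmt3b zygotes. Neither has an annotation in the sources used here. Their level was also high in WT eggs, where LOC_Os09g01000 was at 13952 to 15036 CPM. LOC_Os01g50910 (388, 393 and 375 CPM in WT and 2057, 1829 and 2056 CPM in cmt3b) and LOC_Os03g03810 (653, 706 and 644 against 1241, 1380 and 1421 CPM) completed the top raised genes by level. LOC_Os03g03810 lay close to the 2-fold limit at a log2 change of 1.04, and lost its call without cmt3b replicate 3 (1.00 on the log2 scale).

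The most abundant lowered genes halved rather than disappeared. LOC_Os01g14850 was at 2841, 3023 and 2753 CPM in WT and 1361, 1348 and 1258 CPM in cmt3b zygotes (log2 change -1.09, SE 0.05). LOC_Os03g06670, a core histone gene, went from 995, 1044 and 948 CPM to 429, 420 and 435 CPM (-1.19, SE 0.05, adjusted p = 6.2e-17). LOC_Os09g32150 and LOC_Os07g12250 changed by -1.15 and -1.28.

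The WT zygote was next set against the WT egg to class the genes. Of 21265 genes tested, 2787 were higher (13.1%) and 2051 lower (9.64%) in the WT zygote than in the WT egg. The 3 WT zygote libraries enter both this comparison and that with cmt3b, so the count below describes the genes and is not a test. Of the 1790 genes higher in cmt3b zygotes, 344 (19.2%) were lower in WT zygote than egg, 250 (14%) higher and 934 not called, and 262 had too few counts to be tested in the WT egg and zygote. Of the 1667 genes lower in cmt3b zygotes, 534 (32%) were higher in WT zygote than egg, 83 (4.98%) lower and 1050 not called. Most genes that changed in the mutant zygote were thus not called between the WT egg and zygote. Read the other way, 19.9% of the genes that rose from WT egg to zygote were lower in the mutant zygote and 9.3% higher, while 21.3% of those that fell were higher and 5.13% lower. Genes not called between WT egg and zygote were higher in 5.83% and lower in 6.56%. The median log2 difference of mutant from WT zygote was -0.31 for the genes that rose, 0.35 for those that fell and 0.00 for the remainder (-0.0042).

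**Figure D3:**
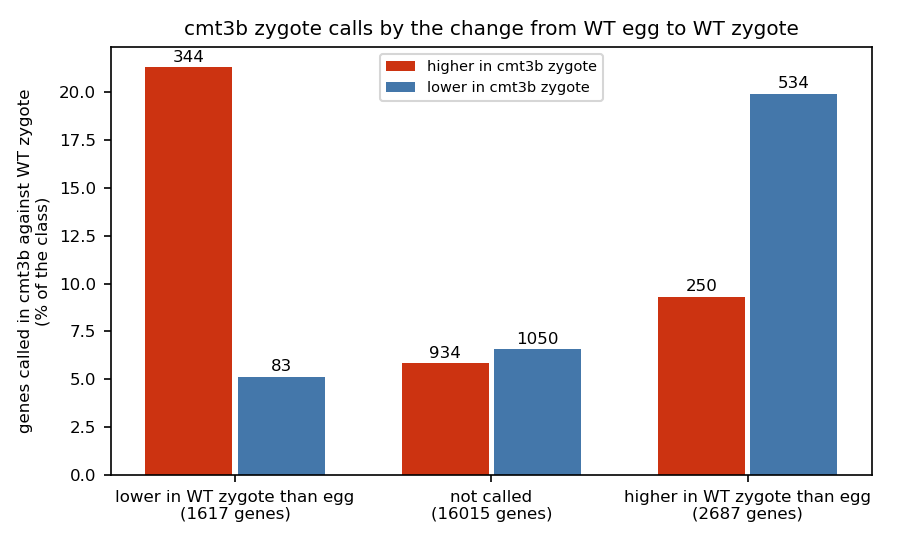
Percent of the genes of each WT class (lower in WT zygote than egg, not called, higher in WT zygote than egg) that were called higher (red) or lower (blue) in cmt3b against WT zygotes, with the number of genes above each bar. The bars are tallest for genes lower in the WT zygote (21.3% higher in cmt3b) and for genes higher in the WT zygote (19.9% lower in cmt3b); the WT zygote libraries are shared by both comparisons.

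The 534 genes that rose in the WT zygote and were lower in the mutant had median levels of 0.917 CPM in WT egg, 3.36 CPM in WT zygote, 1.26 CPM in cmt3b egg and 1.09 CPM in cmt3b zygote. For 310 of them the mutant zygote lay between the WT egg and the WT zygote, and for 224 at or beyond the WT egg. Within the mutant, 9.39% of 20727 tested genes were higher and 12.6% lower in zygote than egg. Of the 534, 76 were higher there, 87 lower and 187 not called, and 184 were not tested. The 534 were chosen for a low mutant zygote value, which enters both the position and these counts. Fewer rises and more falls within the mutant were thus built in and are no finding. LOC_Os04g52420, LOC_Os09g22000, LOC_Os06g48160 and LOC_Os06g48030, all among the largest falls, had the largest changes here too. LOC_Os06g48160 rose from 1.81–2.37 CPM in WT egg to 46.7–53.5 CPM in WT zygote, whereas in the mutant it went from 193 and 201 CPM in egg to 5.72–6.24 CPM in zygote. LOC_Os06g48030 was at 2.53–2.79 CPM in WT egg and 6.00 and 6.58 CPM in cmt3b egg, so its mutant zygote value of 2.50–3.75 CPM was near that of the WT egg.

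The 344 genes that fell in the WT zygote and were higher in the mutant had median levels of 5.66 CPM in WT egg, 1.81 CPM in WT zygote, 6.05 CPM in cmt3b egg and 4.98 CPM in cmt3b zygote. In 194 the mutant zygote lay between the WT zygote and the WT egg, and in 150 at or above the WT egg. Within the mutant, 57 were called lower in zygote than egg, 26 higher and 259 not called. The 344 were chosen for a high mutant zygote value, so their position and these counts were likewise shaped by the choice. The 4 with the largest change were LOC_Os06g24430, LOC_Os01g15900, LOC_Os03g10860 and LOC_Os03g51010. LOC_Os01g15900 was at 0.931, 1.11 and 1.24 CPM in WT zygotes and 11.5, 12.6 and 14.1 CPM in cmt3b zygotes (log2 change 3.53, SE 0.16, adjusted p = 1.6e-15), and at 10.8–11.8 CPM in WT eggs. LOC_Os03g51010 showed 2.06, 3.25 and 2.80 CPM against 17.7, 19.5 and 21.5 CPM, with 5.95–6.77 CPM in WT eggs.

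The 2 smaller classes moved the same way in both comparisons. The first held 250 genes that rose in the WT zygote and were higher still in the mutant zygote. Their medians were 0.882 CPM in WT egg, 4.03 in WT zygote, 4.56 in cmt3b egg and 15.0 in cmt3b zygote. In cmt3b eggs 160 of them were called higher than in WT eggs and 8 lower, beside 14.3% and 8.43% over all genes tested in eggs. The 250 were chosen by their WT egg and zygote values, which also enter this count or the medians that follow. The median log2 change from egg to zygote was 1.96 in WT and 1.93 in the mutant. LOC_Os02g48710 was at 16.8, 17.5 and 16.9 CPM in WT and 240, 262 and 213 CPM in cmt3b zygotes (log2 change 3.83, SE 0.07, adjusted p = 1.6e-23), and LOC_Os04g52110 at 3.99, 5.03 and 4.64 against 72.0, 65.9 and 75.1 CPM. LOC_Os06g49350, annotated as a retrotransposon protein, was at 0.665–0.798 CPM in WT and 15.3–20.9 CPM in cmt3b zygotes, and LOC_Os03g49190 at 0.591–0.931 and 14.2–19.6 CPM. The 83 genes that fell in the WT zygote and were lower still in the mutant included LOC_Os02g58150, LOC_Os04g44740, LOC_Os07g48170 and LOC_Os03g15960. LOC_Os07g48170 declined from 160–168 CPM in WT egg to 44.1–46.9 CPM in WT zygote and was at 8.46–11.3 CPM in cmt3b zygote, close to the 12.8 and 13.9 CPM of the cmt3b eggs.

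Genes of the zygotic programme were followed through a table of 83 genes. The study chose them as higher in WT zygote than egg and raised in cmt3b egg, partly on these libraries, so their rise in the WT zygote and in the mutant egg is not a finding. In cmt3b zygotes 3 were higher (3.61%), 3 lower and 77 within the call limits, beside 8.67% higher and 8.08% lower over all tested genes. The 83 had a median log2 change of 0.05 and a range from -2.23 to 1.80. Without WT zygote replicate 2 the number higher was 5, and without WT zygote replicate 1 or cmt3b zygote replicate 2 the number lower was 2. On the scale from WT egg to WT zygote in CPM, the cmt3b zygote stood at a median of 102% (quartiles 77.5 and 131.6%) of the WT rise, and the cmt3b egg at 19.8% (quartiles 15.5 and 32.1%). Of the 83, 69 were called higher in cmt3b zygote than in cmt3b egg, beside 9.39% of all genes tested in that comparison. No gene of the 15 for chromosome structure and mitosis was called, and the range there was from -0.36 to 0.52. SMC2 (LOC_Os01g67740, a condensin subunit) was at 133, 118 and 125 CPM in WT and 93.6, 98.4 and 96.3 CPM in cmt3b zygotes (-0.36, SE 0.05). TOP2 (LOC_Os02g47150, DNA topoisomerase II) was at 433, 437 and 439 against 572, 549 and 587 CPM (0.41, SE 0.04). Both differences exceeded the spread of the libraries and stayed under 2-fold.

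Of the 23 core histone genes in that table only LOC_Os03g06670 was called, and it was lower. Over all tested genes 8.67% were higher and 8.08% lower. The histone H4 gene LOC_Os07g36500 was at 209, 245 and 226 CPM in WT and 377, 518 and 440 CPM in cmt3b zygotes, a log2 difference of 0.99 (SE 0.08) just under the limit. It passed the limit without WT zygote replicate 2 (1.05) and without cmt3b zygote replicate 1 (1.10). HMGB (LOC_Os08g01100, an HMG-box chromatin protein) was at 246, 236 and 253 against 197, 209 and 238 CPM. Among 6 transcription factors, NAC5 (LOC_Os11g08210) rose from 24.9, 22.8 and 21.3 CPM to 80.12, 79.48 and 75.01 CPM (1.80, SE 0.06, adjusted p = 3.4e-18). HAP3L (LOC_Os09g39490, a histone-fold transcription factor subunit) was at 74.8, 77.3 and 76.3 against 43.7, 46.3 and 49.2 CPM (-0.69, SE 0.05), and DEL2 (LOC_Os06g13670, an E2F-family factor) at 15.3–16.1 against 19.3–20.5 CPM (0.38, SE 0.08). The remaining calls were GST14 (LOC_Os03g04220, a glutathione S-transferase, 1.70–2.79 against 0.110–0.614 CPM), LOC_Os11g26725 (4.95–6.29 against 12.9–15.1 CPM), LOC_Os02g03710 and LOC_Os07g36490, which changed by -1.02 and 1.18.

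Other genes that the study names were read in the same way. DUF1399 (LOC_Os11g40590) went from 48.6, 53.1 and 53.4 CPM to 98.8, 111 and 103 CPM, a log2 change of 1.03 (SE 0.05) that fell under the limit without WT zygote replicate 1 (0.98) or cmt3b zygote replicate 2 (0.99). TBL29 (LOC_Os06g44900), of a family that acetylates cell wall polymers, went from 2.39, 2.07 and 1.88 CPM to 7.81, 8.70 and 8.26 CPM (1.99, SE 0.15, adjusted p = 2.7e-11). ARF21 (LOC_Os08g40900), an auxin response factor, was at 14.1–15.5 against 25.73–27.96 CPM (0.92, SE 0.07). The transcription factors NAC24, NAC127 and bHLH046 had too few counts to test, at means of no more than 0.516 CPM in either zygote group.

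Genes tabulated by the study as raised and with reduced CHG methylation in cmt3b meiocytes or sperm were examined in the zygote. The zygote libraries differ from those on which the tables rest, but every member was chosen for a rise in the same mutant. Over all tested genes 8.67% were higher and 8.08% lower. Of the genes tabulated for meiocytes, 41 were higher and 4 lower in cmt3b zygotes, 25 were tested and not called, and 78 had too few counts. Of those tabulated for sperm, 32 were higher, 5 lower and 51 not called, and 34 were not tested. The tested members had a median log2 change of 2.05 (1.91 with undetected genes at the limit of 3 counts) and 0.73, against -0.0019 over all genes. Members that are silent in WT could pass the count filter only through the mutant, so these counts and medians describe the tested genes alone. The meiocyte median moved to 3.27 without WT zygote replicate 3 and to 1.67 with cmt3b zygote replicate 1 alone. Only 7 genes stand in both tables, and 5 of them were higher in cmt3b zygotes. In the meiocyte table, 27 of the 41 higher genes had no more than 3 counts in any WT zygote library. Lower members included LOC_Os02g52010, annotated as phosphate-induced (0.83 CPM on average in cmt3b against 3.99 in WT).

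Transposon-annotated genes made up 40 entries of the study's tables. Of these, 33 stem from the tables just described and were thus selected for higher expression in male cells of this mutant. In zygotes 12 were higher and 1 lower (2 without cmt3b zygote replicate 2), 12 were not called and 15 were not tested, and all 12 higher genes came from the 33. The shares over all tested genes were 8.67% higher and 8.08% lower. Of the 12 higher genes, 7 had no more than 3 counts in any WT zygote library. These 7 could pass the count filter only through the mutant. LOC_Os01g71840 rose from 0.0739–0.275 CPM to 13.2–16.8 CPM, and LOC_Os12g07180, annotated as a Pong transposon protein, from 0–0.222 CPM to a mean of 8.99 CPM. LOC_Os11g35970 rose from 0–0.0739 to 4.93–5.72 CPM, and LOC_Os06g07420 from 0 counts to 1.38–1.77 CPM. By contrast LOC_Os03g31134, annotated as a Ty1-copia element and the most abundant of the list, had a log2 difference of -0.09 (SE 0.06), and LOC_Os07g04380 was lower (-1.14).

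Lists chosen for methylation in the male lineage had shares of called genes near or below those over all tested genes (8.67% higher and 8.08% lower). Of the genes that the study assigned to sexual-lineage-specific methylation, 114 were tested, of which 9 were higher (7.89%), 6 lower and 99 not called (median 0.12), and 18 were not tested. The strongest fall was that of XTH17 (LOC_Os08g13920), a cell wall xyloglucan enzyme, from 23.3, 23.7 and 23.4 CPM to 4.203, 3.963 and 4.641 CPM (-2.42, SE 0.10, adjusted p = 2.6e-16). TIR1 (LOC_Os05g05800), annotated as an F-box protein and named after the auxin receptor, went from 230–239 CPM to 101–115 CPM. LOC_Os06g38210, an expressed protein, went from 9.27–9.91 CPM to 0.881–2.69 CPM, and LOC_Os03g28120, annotated as a potassium channel protein, from 0.133–0.296 CPM to 0.9555–0.991 CPM. Of the genes in the study's methylation cluster A, 9 were higher (5.66% of those tested), 6 lower (9 without WT zygote replicate 1) and 144 not called, and 156 were not tested. The higher ones included LOC_Os10g21970 (0–0.0459 against 12.15–14.75 CPM) and LOC_Os05g34490 (0.0665–0.148 against 1.43–2.50 CPM), both annotated as expressed proteins. They also included the M-gamma MADS-box gene MADS83 (LOC_Os04g24810, 0.0459–0.148 CPM against 0.854–2.18 CPM), and the aquaporins PIP1;3 (LOC_Os02g57720, 0.275–0.444 against 1.77–3.41 CPM) and PIP2;4 (LOC_Os07g26630, 0.332–0.735 against 2.53–3.15 CPM, in both methylation lists), both membrane water channels. Among 62 translation genes 2 were higher and 0 lower by the edgeR test, with a median of 0.08. These were LOC_Os12g34054, annotated as mitochondrial ribosomal protein S3 (36.9–44.95 against 120.3–143 CPM), and LOC_Os01g67200, of the ribosomal protein L13 family (0–0.133 against 3.22–3.82 CPM), and both stand in the meiocyte or sperm table. The disease resistance, cytochrome P450, F-box and NAC lists had 3, 2, 6 and 1 tested members. There the disease resistance gene LOC_Os11g29920 was higher (0 counts in WT, 1.05–1.32 CPM in cmt3b) and the P450 gene eui1 (LOC_Os05g40384) lower (0.781–0.997 against 0–0.440 CPM). Of the F-box genes, Fbox258 (LOC_Os05g35110, 1.10) was higher, while Fbox059 (LOC_Os02g01550, -1.09) and TIR1, given above, were lower.

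**Figure D4:**
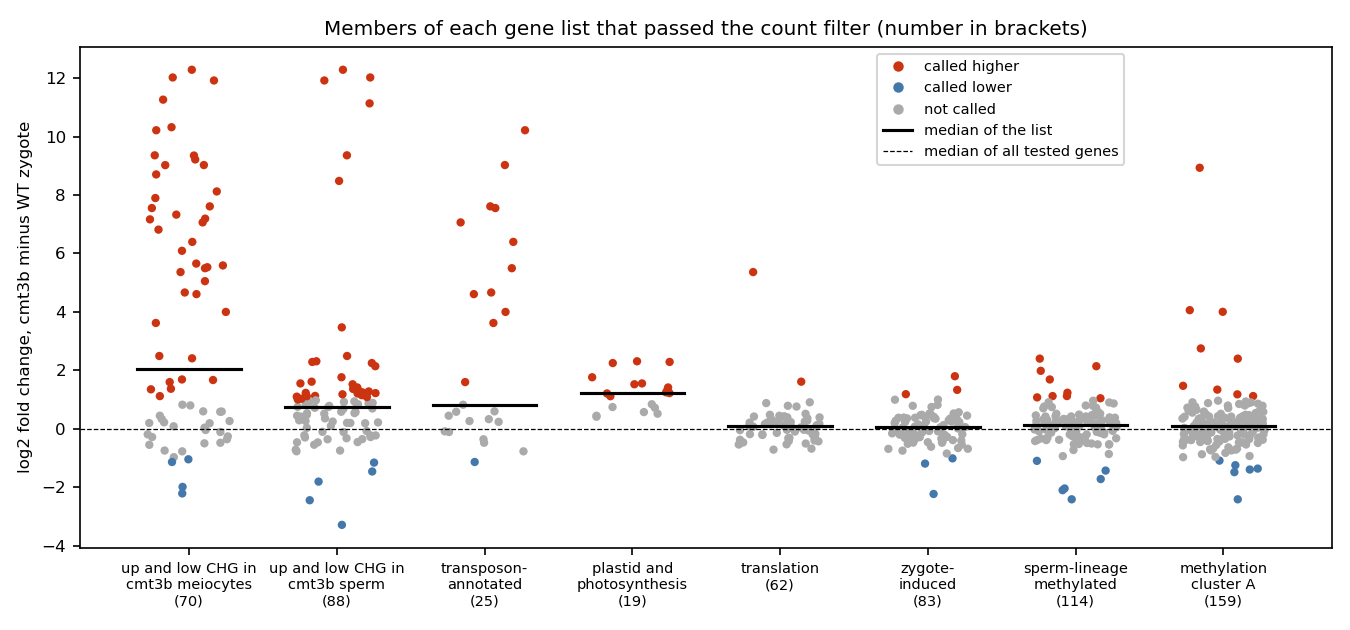
Fitted log2 fold change (cmt3b minus WT zygote) of every member that passed the count filter in 8 gene lists, coloured by call, with the median of each list (bar) and of all tested genes (dashed); values above about 5 belong to genes at or near 0 in WT and depend on the prior count. The meiocyte list spreads up to 12.3 with 41 genes called higher, whereas the 83 zygote-induced genes stay between -2.23 and 1.80.

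Of 22 listed plastid and photosynthesis genes 12 were higher and 0 lower in cmt3b zygotes by the edgeR test, 7 were not called and 3 not tested. Of the 22, 21 come from the study's tables of genes raised in cmt3b meiocytes or sperm, and so were chosen for a rise in this mutant. For comparison, 8.67% of all tested genes were higher and 8.08% lower. The nuclear genes for the small subunit of Rubisco were uneven. The gene rbcS (LOC_Os12g17600) was at 6.38, 6.36 and 4.36 CPM in WT zygotes and 0.328, 59.998 and 27.98 CPM in cmt3b zygotes, and RbcS5 (LOC_Os12g19381) at 3.46, 6.21 and 3.76 CPM and 0.919, 46.5 and 22.6 CPM. Replicate 1 of the mutant lay below every WT library and replicates 2 and 3 above, so the groups overlap. With replicate 1 alone in the mutant group both calls reversed, to -4.01 for rbcS and -2.20 for RbcS5 on the log2 scale, from 2.29 and 2.31. They also lost the call without replicate 2 (adjusted p = 0.024 and 0.011) and under DESeq2 (adjusted p = 0.13 and 0.073). Among the 1790 higher genes, 14 had replicates 2 and 3 both over 4 times replicate 1, and 19 had replicate 1 no higher than the highest WT library. All 19 tested members had a positive log2 change in the full comparison, and with replicate 1 alone the list held 2 lower genes. The part of green tissue in the other plastid genes was not tested.

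The 17 other tested genes of the list behaved evenly. They summed to 459.8–460.4 CPM in the WT zygote libraries and 671–702 CPM in the 3 cmt3b libraries. Of the 17, 10 were called higher and 0 lower, beside 8.67% and 8.08% over all tested genes. The large subunit gene LOC_Os12g10580 had a log2 change of 1.22 and LOC_Os10g38216, annotated as the photosystem I assembly protein ycf3, one of 1.41. LOC_Os06g39708, annotated as the photosystem II P680 apoprotein, was at 0.266, 0.444 and 0.597 CPM in WT and 2.69, 2.20 and 1.57 CPM in cmt3b zygotes (2.25, SE 0.34). LOC_Os10g38229, a photosystem I P700 apoprotein gene, was at 0.597–0.864 against 2.10–2.97 CPM (1.76, SE 0.28). These proteins are known as products of the chloroplast genome, of which copies lie in nuclear chromosomes. Reads of such copies and of the chloroplast itself may not be told apart by the counting, so which copy gave the RNA is uncertain. In cmt3b eggs, 9 of the same 17 genes were higher than in WT eggs and 0 lower by the edgeR test, with a median log2 change of 1.05. Over all genes tested in eggs, 14.3% were higher and 8.43% lower.

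**Figure D5:**
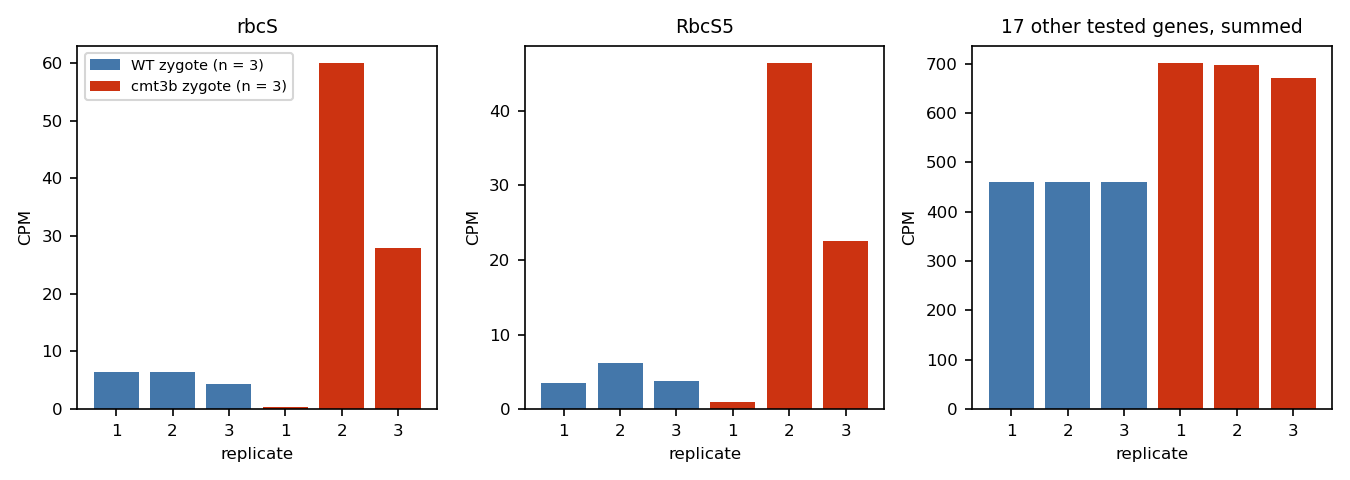
CPM in each zygote library of rbcS, RbcS5 and the sum of the 17 other tested plastid and photosynthesis genes; each bar is 1 library and all axes start at 0. The Rubisco small subunit genes are near 0 in cmt3b replicate 1 and highest in replicate 2, while the sum of the other genes is 671 to 702 CPM in all 3 mutant libraries and about 460 CPM in WT.

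Called genes lay on all 12 chromosomes, with 6.66% (chromosome 2) to 12.1% (chromosome 10) of tested genes higher and 6.14% (chromosome 5) to 9.85% (chromosome 11) lower. Runs of at least 5 neighbouring tested genes called in the same direction were found 14 times, 13 of higher and 1 of lower genes, and held 84 genes. On chromosome 10, 5 runs with 29 genes lay between LOC_Os10g21214 and LOC_Os10g21418. The ends of that span were set by runs of higher genes, so an excess of higher genes within it was built in. In it 32 of 44 tested genes were higher and 0 lower by the edgeR test, with 43 of the 44 changes positive and a median of 1.18 on the log2 scale. The first of them, LOC_Os10g21214, is annotated as photosystem II reaction center protein Z and, like LOC_Os02g24628 with the same annotation, may share reads with a near-identical copy. It was at 5.12, 6.65 and 5.97 CPM in WT and 12.3, 14.5 and 14.7 CPM in cmt3b zygotes. The longest run, 8 genes from LOC_Os10g38216 to LOC_Os10g38278, opens with ycf3, the P700 apoprotein genes and the chloroplast ribosomal protein S14 gene. Only 8 of the 84 genes in runs are annotated in the sources used here. The run from LOC_Os11g26600 to LOC_Os11g26790 contained LOC_Os11g26725 of the zygotic table, and the run from LOC_Os11g33050 to LOC_Os11g33120 ended in rbohI (LOC_Os11g33120), a respiratory burst oxidase that makes reactive oxygen, at 9.46 CPM in WT and 30.01 CPM in cmt3b zygotes. The single run of lower genes stretched from LOC_Os09g21390 to LOC_Os09g21450.

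The effect of the mutation in the zygote was finally set beside that in the egg, in which no library is shared. The cmt3b egg and zygote libraries may stem from different edited lines and differed in their CMT3b RNA (0 and 1 against 43 to 58 counts), so a difference between lines and one between stages cannot be told apart in what follows. Of 21466 genes tested in eggs, 3065 were higher (14.3%) and 1810 lower (8.43%) in cmt3b. Genes called in the same direction in both cells numbered 667 for higher, 37.3% of the zygote list and 21.8% of the egg list, and 437 for lower, 26.2% and 24.1%. Opposite calls were made for 246 genes. Across 20121 genes tested in both, the log2 changes had a Pearson correlation of 0.44, a description across genes that are not independent replicates. A fit to all 11 libraries tested the difference between the effects directly. Of 22303 genes, 1875 had a more positive effect in the zygote (8.41%) and 3177 a more negative one (14.2%). Among the genes higher in cmt3b zygotes, 604 had an effect larger than in the egg and 174 one smaller. Among those lower in cmt3b zygotes, 660 had an effect more negative than in the egg and 38 one less negative. Both sets were chosen for a large zygote effect, which itself enters the difference. An excess in these directions was thus built in and is no finding.

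Single genes, chosen for the largest differences, show how far egg and zygote can part. LOC_Os04g28420 was at 60.4–61.7 CPM in WT egg and 0.305 and 0.0914 CPM in cmt3b egg, but at 1.97–2.53 CPM in WT and 4.07–4.62 CPM in cmt3b zygotes. LOC_Os05g32460 had 0 counts in cmt3b eggs and 1.17–1.37 CPM in WT eggs, and rose in zygotes from 1.46, 1.18 and 1.52 CPM to 9.92, 13.7 and 12.2 CPM (3.08, SE 0.17, adjusted p = 4.0e-14). LOC_Os04g01740 was at 19.7–22.0 CPM in WT eggs and 0 counts in cmt3b eggs, with no more than 0.440 CPM in any zygote library. In the opposite direction, LOC_Os04g57200 was at 190 and 185 CPM in cmt3b eggs and at most 0.0778 CPM in WT eggs, while WT and cmt3b zygotes overlapped at 1.06–2.07 and 1.25–1.98 CPM. LOC_Os02g16850 (11.2 and 11.7 CPM) and LOC_Os06g11650 (10.8 and 11.1 CPM) were detected in cmt3b eggs and had 0 counts in WT eggs, and neither exceeded 0.689 CPM in any zygote library.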

How the data were processed

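The authors deposited, for each RNA-seq library, read counts per gene and FPKM values per gene (counts scaled by gene length and depth), for 55986 features named mostly by MSU locus identifiers. The submitters' processing notes name fastp 0.20.1, HISAT2 and featureCounts. The study's methods name MSU7.0 as the genome, and they and the labels name different amplification kits. The count tables were tested with edgeR 4.0.16 under R 4.3.3: genes kept by filterByExpr at a minimum count of 10, TMM scaling, quasi-likelihood test on the libraries of both groups compared (all 11 egg and zygote libraries for the difference between stages), Benjamini-Hochberg adjustment. Printed CPM of egg and zygote are scaled by TMM over 11 libraries. SE is the log2 change divided by the square root of F. Fold bounds use 3 counts in the smallest library of the silent group. Floors and bounds cover counting error only. Replicate numbers did not pair the libraries.

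Genes were named as follows: genes named by the study; the 8 largest rises and falls among called genes with at least 10 CPM and no overlap; up to 4 called members of each list with the largest change; the 4 most abundant called genes in each direction; the 3 largest differences between stages in each direction; and the 4 largest changes in each class of the WT comparison. LOC_Os02g49640, LOC_Os02g52010, LOC_Os02g03710, LOC_Os07g36490, LOC_Os01g71840, LOC_Os12g07180, LOC_Os03g31134, LOC_Os07g04380, LOC_Os12g10580, LOC_Os02g24628 and the genes of runs were named after their values were seen. The members and lists were chosen with earlier results of these data known. Annotations come from the study's tables, since the reference table matched 0 locus identifiers, and planned groups from it were left out. The bisulfite samples were not analysed here. Alternatives were RLE scaling, no filter, DESeq2 1.42.0, a fit to all 4 egg and zygote groups, a replicate block and leaving out each library.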

Additional observations from a re-analysis of the deposited data

Results flagged for a closer look

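The effect of the mutation differed between zygote and egg, by the interaction term of the edgeR fit to 11 libraries (adjusted p under 0.01 and over 2-fold), for 1875 genes with a more positive and 3177 with a more negative effect in the zygote. Among the named genes with such a difference, the log2 difference, zygote minus egg, was positive for 10. It was 12.45 for LOC_Os04g01740, 10.41 for LOC_Os05g32460, 9.16 for LOC_Os04g28420, 5.31 for CMT3b, 3.70 for RPP14, 3.03 for LOC_Os06g04920, 2.48 for LOC_Os09g01000, 1.93 for DUF1399, 1.60 for LOC_Os03g03810 and 1.22 for JMJ707. It was negative for 15. The values were -1.16 for CMT3a, -1.25 for MET1b, -1.39 for LOC_Os02g25700, -1.40 for SMC2, -1.54 for HMGB, -1.55 for LOC_Os09g32150, -1.81 for HAP3L, -1.83 for LOC_Os01g14850, -2.08 for LOC_Os07g12250, -3.28 for LOC_Os03g06670, -3.73 for LOC_Os06g48030, -9.62 for LOC_Os06g48160, -12.46 for LOC_Os04g57200, -13.05 for LOC_Os06g11650 and -13.23 for LOC_Os02g16850. Where a group is at or near 0 counts the size of the value depends on the prior count. SMC2, HMGB, HAP3L, CMT3a, MET1b and LOC_Os03g06670 were selected by the study for a rise in the mutant egg, which enters this difference. LOC_Os04g01740, LOC_Os05g32460, LOC_Os04g28420, LOC_Os04g57200, LOC_Os06g11650 and LOC_Os02g16850 were named for the largest differences. Others were named as the largest or most abundant changes called in the zygote, and that effect enters the difference too. The counts of 10 and 15 thus depend on how genes were named and are no finding. The sources do not name the edited line of each cmt3b library, so a difference between lines and one between stages cannot be told apart, for CMT3b and for the other genes.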

How the results depend on the processing

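The counts of genes called in each comparison stayed within 1.5 times under RLE scaling, no filter, DESeq2, the fit to 4 groups, the replicate block and each left-out library. The loci detected only in cmt3b zygotes numbered 25 at 5 CPM. Same-numbered zygote libraries had residual correlations of 0.0018 to 0.019, so the numbers share only a label, and the replicate block gave 1793 higher and 1669 lower genes in cmt3b zygotes and changed no call of a named gene there. Of 79 named genes tested, DESeq2 lost the calls of rbcS and RbcS5 alone. A further alternative, chosen after seeing the data, kept only cmt3b replicate 1 and assumed that this lone library varies like the WT group. Among the named genes, the changes of rbcS and RbcS5 then reversed (-4.01 and -2.20). Those of Fbox059, TIR1, LOC_Os03g03810 and DUF1399 fell under the 2-fold limit. Outside the named genes a few other calls reversed too. The difference between stages for LOC_Os02g16850 lost its call without WT zygote replicate 2 (adjusted p = 1.0) and under DESeq2 (adjusted p = 0.076), over a range from -13.9 to -10.6 across all alternatives. Depth limits the weakest genes: 3 counts are 0.222 CPM in the smallest WT and 0.330 CPM in the smallest cmt3b zygote library.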
